A study of Xenopus laevis with 18 samples.

Results

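The transcripts described here were present on average over the egg and cleaving embryo of the African clawed frog Xenopus laevis. They rose in gastrula embryos and fell again by the tailbud stages. They were chosen by their own levels, in TPM, which stands for a transcript's share of all frog transcripts, scaled so that they sum to 1000000. A row of the deposited table was a member when its mean was at least 1 TPM before the midblastula, at least 10 TPM in gastrula embryos, and at least 3 times higher in gastrula embryos than both before the midblastula and in tailbud embryos. Of 30993 frog rows, 114 met this rule. The rule used the libraries of stages 0, 2, 6, 6.5 and 7 of the Nieuwkoop and Faber (NF) series, of NF 10 and 12, and of NF 23, 26, 30 and 33. It did not use NF 8, 8.5 and 9, the blastula, or NF 14, 16, 18 and 20, the neurula. Tests are given only between and within these 7 libraries, but their spread was estimated from all 18 libraries, those of the rule included.

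The series holds 18 libraries of whole J strain embryos, 1 library per stage, from RNA depleted of ribosomal RNA. The labels name no treatment or mutation, and they give neither the number of embryos in a library nor whether stages came from separate clutches. Stages were grouped into 5 windows, namely pre-midblastula (5 libraries), blastula (3), gastrula (2), neurula (4) and tailbud (4), so every SD holds real change between neighbouring stages as well as technical spread. The deposited table names its rows by sequence identifiers, and 0 of them matched a RefSeq gene table, so no gene name, protein or sequence is given and 4 members are shown by identifier. Xenopus laevis has an ancient doubled genome, and a row whose sequence has a near-identical copy may share reads with it, which makes its level uncertain.

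In frogs the egg is loaded with maternal messenger RNA, and the embryo's own genome is largely silent through the rapid cleavage divisions. Transcription starts broadly around the midblastula, and many maternal messages are cleared in the stages that follow. During gastrulation, when the germ layers are set apart and the body axis forms, a gene with a maternal message can add transcripts from the embryo's genome. Total RNA of this kind cannot separate old from new molecules, and in whole embryos fewer cells of a type and less RNA per cell cannot be told apart.

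Most members reached 1 TPM in every pre-midblastula library, which the limit on their mean in part ensures. In 92 of the 114 members all 5 pre-midblastula libraries were at 1 TPM or more, and 9 members were listed at 0 in at least 1 of these libraries. The pre-midblastula mean ranged from 1.02 to 4181 TPM, with a median of 11.9 TPM. It was under 10 TPM in 54 members, from 10 to under 100 TPM in 47 and at least 100 TPM in 13. For 9 members the mean fell under 1 TPM once some single library was left out, so these members would miss the limit of the rule without that library. A group of 5 members was listed at 0 in at least 10 of the 18 libraries, and the most extreme of them in 16. An exact 0 in such a table can be a failed estimate.

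The gastrula level is part of the rule, and the values behind it are given as a description. The highest of the 18 libraries was NF 10 in 51 members and NF 12 in 53. Of the other 10 members, 7 were highest in a neurula library (4 at NF 16 and 3 at NF 14), 2 in the NF 9 library and 1 at NF 6.5. The gastrula mean ranged from 10.3 to 14598 TPM with a median of 81.2 TPM, and 52 members were at 100 TPM or more. By the choice of the rows it exceeded the pre-midblastula mean 3.01-fold to 434-fold, with a median of 5.50-fold, and the tailbud mean by a median of 5.06-fold over the 111 members with a tailbud mean above 0. In 52 members NF 10 and NF 12 each stood at 3 times both outer means, and in the other members 1 of the gastrula libraries alone did not reach that mark. Just inside the limits, 23 members met their closest condition by less than 10%, with a median gastrula over tailbud ratio of 3.53. Just outside, 34 rows missed their closest condition by a similar margin, with a median ratio of 3.08.

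A minority of the rows that rose into gastrulation fell back this far. Of 471 rows that met the conditions on the pre-midblastula and gastrula levels alone, 114 were members, or 24.2%. Another 223 were below their gastrula mean in tailbud embryos by less than 3-fold, and 134 were at or above it. The same peak without a maternal level was found in 255 rows, which met every other condition but had a pre-midblastula mean under 1 TPM. These 255 rows are the closest comparison for the members and are called low-maternal below, a name that rests only on this limit.

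TPM shares out a fixed total, and the ratio of frog to spike-in RNA was not constant over the stages. The amounts of spike-in and the embryos behind a library are not given in the labels, so this ratio need not follow the RNA of an embryo. It was 1.38 at NF 10 and 1.39 at NF 12, ranged from 1.18 to 1.66 before the midblastula, and reached 2.88 to 4.20 in tailbud libraries. Measured per spike-in, 30 of the 114 members still met the rule and no other row did. The median gastrula over tailbud ratio on that scale was 2.01-fold, in place of 5.06-fold in TPM. The rise was little affected, with a median gastrula over pre-midblastula ratio of 5.49-fold per spike-in. The rise thus held per spike-in, while the size of the fall depended on the scale.

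The median member was level before the midblastula and higher from NF 8.5 to NF 26. Over the members the median level was 10.8, 11.4, 10.4, 11.6 and 9.31 TPM in the libraries of NF 0, 2, 6, 6.5 and 7. Blastula medians were 11.4, 15.1 and 26.7 TPM at NF 8, 8.5 and 9. The gastrula libraries were alike, with medians of 78.8 and 78.6 TPM at NF 10 and 12. Neurula medians were 47.8, 45.5, 35.8 and 22.8 TPM at NF 14, 16, 18 and 20. Tailbud medians were 15.9, 14.1, 10.5 and 8.33 TPM at NF 23, 26, 30 and 33. The NF 33 library was thus below every pre-midblastula library, while NF 10 and NF 12 stood above all others. Single members were less steady than their median, and their coefficient of variation over the 5 pre-midblastula libraries had a median of 18.9%, against 8.12% for the 11573 rows with at least 1 TPM there and 10 TPM in the gastrula. The maternal levels of these 2 sets of rows were not matched. Over the 12253 rows at 10 TPM or more in gastrula embryos the median went the other way, with 44.2, 36.9, 28.2 and 16.1 TPM at NF 0, 10, 12 and 33.

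**Figure D1:**
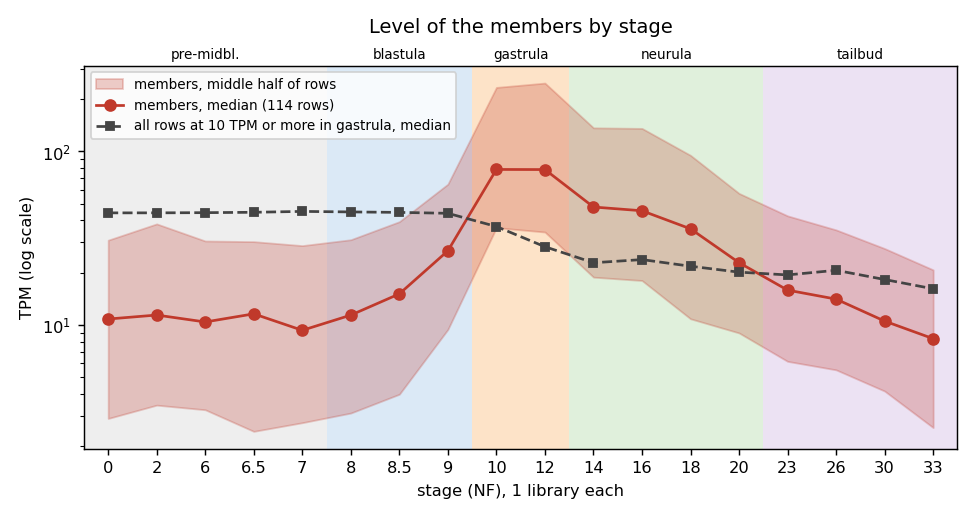
Level in TPM on a log axis against stage, 1 library per stage, with the 5 windows shaded. The red line is the median of the 114 members and the red band their middle 50%, and the dashed line is the median of all rows at 10 TPM or more in gastrula embryos. The member median rises from 11.4 TPM at NF 8 to 78.8 TPM at NF 10 while the dashed line falls.

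Together the members held a small part of the transcriptome, which grew several-fold into gastrulation. The rule sets this growth and the fall by the tailbud, so both are a description. Their share of all frog transcripts lay between 0.851% and 0.920% in the 5 pre-midblastula libraries and was 0.889% at NF 8. At NF 8.5, 9, 10 and 12 it was 1.23%, 1.74%, 4.32% and 3.38%. In the neurula it was 2.35%, 2.16%, 1.73% and 1.39% at NF 14, 16, 18 and 20, and in the tailbud it ended at 0.652% at NF 33. Each neurula library was above NF 8 and NF 8.5, and NF 9 fell among the neurula values.

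A single member made up a large part of this share. The most abundant one, singled out after its values were seen, held 42.8% of the members' sum at NF 10. Its level was 4163, 3927, 4160, 4211 and 4443 TPM in the pre-midblastula libraries and 4206, 7127 and 9417 TPM at NF 8, 8.5 and 9. It reached 18468 and 10729 TPM in the gastrula libraries of NF 10 and 12, then fell to 7942, 6518, 5917 and 6007 TPM at NF 14 to 20 and to 5412, 4092, 4615 and 3441 TPM at NF 23 to 33. Without it the members' share was 0.469%, 2.47%, 2.31% and 0.788% at NF 8, 10, 12 and 20. The rule asks for a higher gastrula level in every member, so a peak without this row is in part built in. Only 6 members had a gastrula mean of 1000 TPM or more.

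The rise was visible in the blastula libraries, which had no part in choosing the members. At NF 9, 44 of the 114 members had reached 2 times their pre-midblastula mean, against 11 at NF 8.5 and 1 at NF 8. Counted by the first stage from which a member stayed at 2 times that mean into gastrulation, the start was NF 8.5 for 10 members, NF 9 for 34, the NF 10 library for 62 and NF 12 for 8. The pre-midblastula mean is part of the rule, so these counts are a description. They were not made for other rows, so how far they are particular to the members is unknown. Between neighbouring libraries, 39 members were at least 2-fold higher at NF 9 than at NF 8.5, and 93 were at NF 10 over NF 9, on log2(TPM + 1). The median step from NF 9 to NF 10 was 1.52 on the log2 scale for members. For rows at 10 TPM or more in gastrula embryos it was -0.16. The rule used NF 10, so the steps into that library are in part built in.

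Within the blastula, 4 members passed the test for a rise over the 3 stages. A slope over stage order inside this window was tested with limma on log2(TPM + 1) over 21670 rows. All 114 members entered the test, which the gastrula level in the rule ensures by itself. With an adjusted p under 0.05 as the threshold, 0.72% of all rows rose and 0.0369% fell, against 4 members that rose and 0 that fell. At an unadjusted p under 0.05, 34 members rose and 0 fell, where 2.25% and 1.47% of all rows did so. The fitted change from NF 8 to NF 9 had a median of 0.64 for members and 0.00 for all rows, on the log2 scale. It was positive in 101 of 114 members and in 229 of the 255 low-maternal rows. In 60 members the 3 values followed stage order, a count that was not made for other rows.

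The 4 members that rose within the blastula started from the low end of the maternal range. Their pre-midblastula means lay at or under 2.46 TPM. Their levels were 1.28 to 2.35 TPM at NF 8, then 5.67 to 45.4 TPM, and finally 27.1 to 250 TPM in the NF 9 library. These values formed the call, so their order is a description. Their fitted changes ran from 3.39 to 6.39 on the log2 scale, with standard errors from 0.49 to 1.03 (limma adjusted p from 0.000695 to 0.00524). No member was called without NF 8 or without NF 9. Over all rows 30 of 21741 rose without NF 8 and 15 of 21727 without NF 9, against 156 of 21670 with every library. Among the low-maternal rows 87 of 255 rose by this test, or 34.1%, against 3.51% of the members, a difference that was not tested. The NF 8 column is one that sums to 1000000 while those of NF 8.5 and NF 9 sum to more. With the kind of column as a term 4 members were again called, where 100 of 21670 rows rose. The headers of NF 8 and all earlier columns also end in letters, not explained in the labels, that later headers lack, and their part in the rise was not tested.

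Neurula embryos still held more of most members than blastula embryos did. Between these windows 68 of the 114 members were higher in the neurula and 12 were lower (limma over all windows, adjusted p under 0.05), or 59.6% and 10.5%. Over all 21670 rows tested 26.7% were higher and 51.8% lower. The median log2 change from blastula to neurula was 1.05 for members and -0.62 for all rows, and 87 members had the higher mean in the neurula. Among the low-maternal rows 194 of 255 were higher and 11 lower, or 76.1% and 4.31%, with a median log2 change of 3.06. A neurula level above the blastula was thus not particular to the members, and the difference from the low-maternal rows was not tested. All 4 neurula libraries lay on 1 side of all 3 blastula libraries in 56 members that were higher and 10 that were lower, against 25.9% and 51.6% of all rows. The 34 members not called had changes from -2.21 to 1.84 on the log2 scale.

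The number of higher and lower members depended on the scale and on single libraries. Per spike-in 75 members were higher and 8 lower, and the medians were 1.32 for members and -0.24 for all rows. Over all 22560 rows of that fit 6542 were higher and 9461 lower. Scaling to the median ratio of rows gave 88 and 2, with medians of 1.99 and 0.24. All rows shifted with it, to 9231 higher and 6912 lower of 22196, against 5789 and 11230 of 21670 in the main fit. Without NF 9 there were 73 higher and 6 lower, and without NF 8, the one blastula library whose header ends in those letters, 60 and 11. Over all rows 5547 were higher and 10872 lower of 21727 without NF 9. Without NF 8 these were 5499 and 10785 of 21741. With both windows fitted alone 67 of 112 members were higher and 10 lower, against 5576 and 11098 of 20547 rows. The medians of that fit were 1.08 for members and -0.72 for all rows. Within columns summing to 1000000 NF 8 alone is set against NF 14 and 16, so only the size of the change is given, for 112 members. Within the other columns, with NF 8.5 and 9 against NF 18 and 20, 48 were higher and 16 lower, against 5510 and 11043 of 20791 rows. The medians of members and of all rows were 1.74 and -0.55 within columns summing to 1000000. Within the other columns they were 0.58 and -0.73. Kind of column and stage cannot be told apart between these fits. Members were above the median of all rows by more than 1 on the log2 scale in each of these fits.

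**Figure D2:**
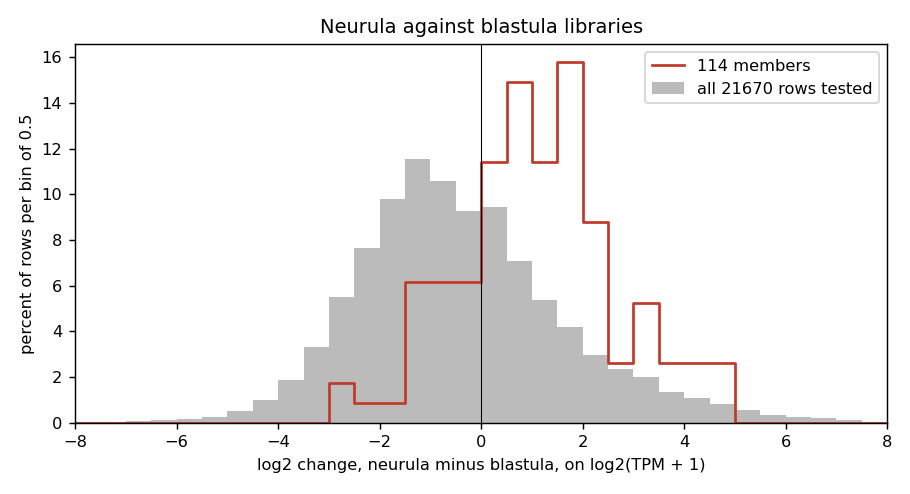
Histogram of the fitted log2 change from blastula to neurula, in bins of 0.5, with the percent of rows in each bin on the vertical axis. Grey bars are all 21670 rows tested and the red outline is the 114 members, whose median lies at 1.05 against -0.62 for all rows.

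The rows higher in the neurula and those lower there are described next by their other values, with no test, since the neurula level formed these lists. Of the 68 higher members, 50 stood higher at NF 12 than at NF 10, and of the 12 lower members 10 stood higher at NF 10. At NF 14 the 12 lower members held 4.97% to 30.5% of their gastrula mean, with a median of 17.9%, while the 68 higher members held a median of 78.1%. NF 14 is part of the call, so this share is not independent of it. The higher members had log2 changes from 0.59 to 4.83 and a median of 1.82. Their median level was 11.1 TPM in the blastula and 49.9 TPM in the neurula. The lower members had log2 changes from -2.73 to -0.69. Their median level was 33.2 TPM in the blastula and 13.3 TPM in the neurula.

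The largest rise from blastula to neurula among members without overlap of libraries was that of XeXenL6RMv10050366m. Its level was 4.05, 3.62, 4.39, 1.83 and 1.55 TPM in the pre-midblastula libraries and 2.79, 0.959 and 4.68 TPM at NF 8, 8.5 and 9. The gastrula libraries of NF 10 and 12 held 278 and 210.4 TPM, and the level then went to 134, 118, 101 and 57.9 TPM at NF 14, 16, 18 and 20. The switch thus came between NF 9 and NF 10, and every neurula library was above every blastula library. Tailbud values were 40.5, 33.7, 15.5 and 11.9 TPM, all above the pre-midblastula values. The log2 change from blastula to neurula was 4.83 (SE 0.43, limma adjusted p = 3.44e-08).

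XeXenL6RMv10049917m had the next largest rise and a later peak. Its 5 pre-midblastula libraries held 0.935, 0.948, 1.63, 1.62 and 2.01 TPM, and NF 8, 8.5 and 9 held 1.17, 1.04 and 1.39 TPM. NF 10 and 12 held 76.4 and 287 TPM. Thus no blastula library stood outside the pre-midblastula range, and the NF 12 value was the highest. Neurula values were 89.5, 77.8, 52.4 and 25.9 TPM and tailbud values 17.4, 9.40, 6.89 and 2.45 TPM, each lower than the stage before. The change from blastula to neurula was 4.69 on the log2 scale (SE 0.51, limma adjusted p = 2.47e-07).

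XeXenL6RMv10034006m had the largest fall from blastula to neurula. It was steady before the midblastula, at 47.7, 51.8, 45.8, 48.5 and 49.8 TPM, and stood at 47.9, 66.4 and 158 TPM at NF 8, 8.5 and 9. In the gastrula it held 459 and 252 TPM, and in the neurula 30.2, 19.6, 10.7 and 1.91 TPM at NF 14 to 20. All 4 neurula libraries were below all maternal ones, so the fall went past the starting level. Tailbud values were 0.528, 0.766, 0.422 and 0.0619 TPM. The change from blastula to neurula was -2.73 on the log2 scale (SE 0.56, limma adjusted p = 0.000261). With both windows fitted alone the limma adjusted p for this change was 0.0113. This member was also called falling within the neurula, by 3.32 from NF 14 to NF 20 on the log2 scale (limma adjusted p = 0.000793).

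XeXenL6RMv10033523m fell nearly as far after a peak of 1 library. It stood at 25.1, 19.6, 20.7, 17.1 and 12.1 TPM before the midblastula and at 17.1, 18.7 and 44.3 TPM at NF 8, 8.5 and 9. The NF 10 library held 113 TPM and the NF 12 library 19.7 TPM, so the high gastrula level came from NF 10 alone. Neurula values were 3.31, 2.02, 2.45 and 5.41 TPM, below all blastula libraries, and tailbud values were 7.27, 7.95, 7.95 and 11.6 TPM. The change from blastula to neurula was -2.62 on the log2 scale (SE 0.45, limma adjusted p = 4.51e-05).

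**Figure D3:**
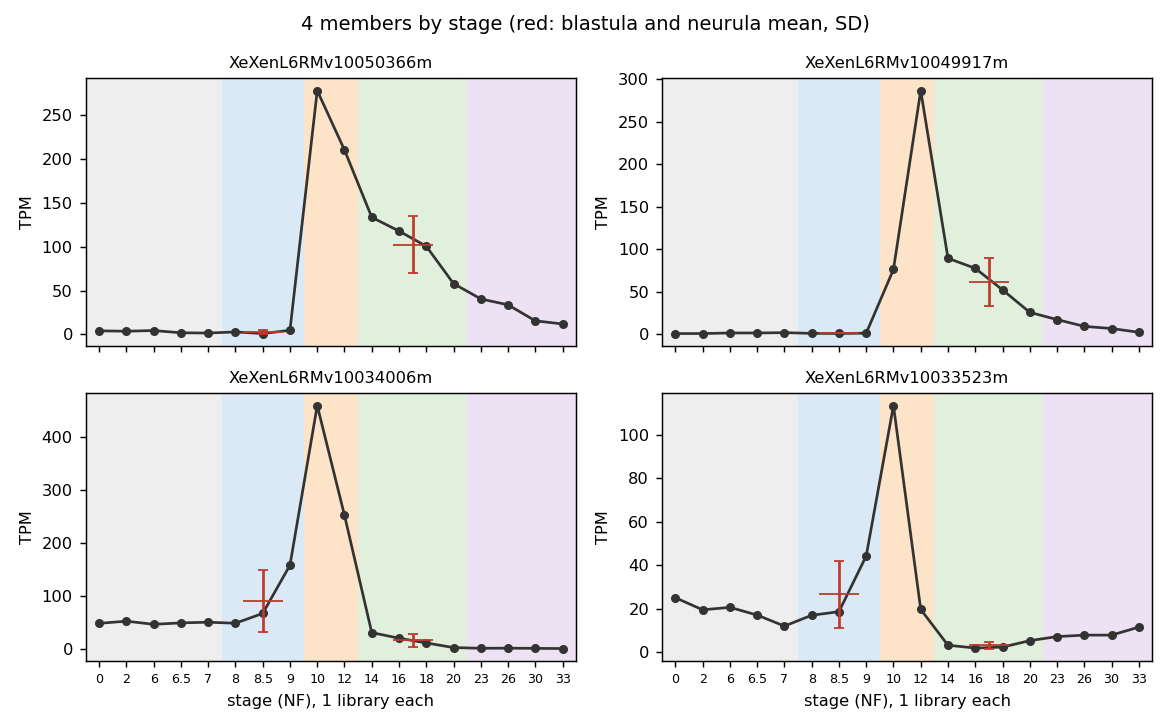
Level in TPM against stage for the 2 members with the largest rise (top) and the 2 with the largest fall (bottom) from blastula to neurula, 1 point per library. Red marks give the mean and SD of the 3 blastula and the 4 neurula libraries. The upper pair stays above its blastula level through NF 20, and the lower pair is below it from NF 14.

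The median member declined through the neurula, and 14 members passed the test for a fall. The fitted change from NF 14 to NF 20 had a median of -0.95 on the log2 scale for members and 0.01 for all rows. It was below 0 in 110 of 114 members and in 234 of the 255 low-maternal rows. The 110 take in a row at 0 TPM throughout the neurula, whose change below 0 is a rounding error. The 234 were not checked for such rows. NF 14 stood above NF 20 in 109 of 114 members. The test of this slope called 14 members falling and 0 rising (limma, adjusted p under 0.05), against 2.12% and 3.99% of all rows. At an unadjusted p under 0.05, 49 members fell and 0 rose, against 8.94% and 11.7% of all rows. The median level of these 14 members was 50.3, 54.6, 29.3 and 13.2 TPM at NF 14, 16, 18 and 20. Their changes ran from -3.38 to -1.06 on the log2 scale (limma adjusted p from 0.000793 to 0.0440). The median of these 14 members thus fell after NF 16. The kind of column changes at that same step, so stage and kind of column cannot be told apart there. These stages also formed the list, so the timing is a description.

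This count leaned on NF 20 and NF 16. Without NF 20 no member was called, and 0 of all rows were, in either direction. Without NF 16 the count was 6, without NF 14 it was 12 and without NF 18 it was 15. Over all rows 253 of 21685, 414 of 21688 and 452 of 21695 fell in these fits, against 460 of 21670 with every library. Per spike-in 7 members fell, and 122 of all 22560 rows did. The median change there was -0.74 for members and 0.20 for all rows. The NF 14 and NF 16 columns sum to 1000000 and those of NF 18 and NF 20 to more. With the kind of column as a term 7 members fell, against 249 of all 21670 rows. The count over all rows thus dropped in these fits as well. Among the low-maternal rows 27 of 255 fell, or 10.6%, close to the 12.3% of the members, a difference that was not tested.

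Members split almost evenly by the gastrula library in which they were higher. NF 10 was above NF 12 in 54 members and NF 12 above NF 10 in 60. The libraries were within 2-fold of each other in 65 members, while NF 10 was at least 2-fold higher in 22 and NF 12 in 27, on log2(TPM + 1). Each stage is 1 library, and the NF 10 column sums to more than 1000000 while that of NF 12 does not, so stage and kind of column cannot be told apart here. Of the 255 low-maternal rows 103 were higher at NF 10.

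The course outside the gastrula, which did not enter this split, differed between these lists. Members higher at NF 10 held a median of 39.9% of their gastrula mean at NF 9, and those higher at NF 12 held 23.4%. The medians after the gastrula were 43.5% and 83.1% for the NF 14 library, 35.3% and 87.0% for NF 16, 30.1% and 59.2% for NF 18, and 19.9% and 41.7% for NF 20. The first were thus ahead at NF 9 and lower from NF 14 on. By NF 14, 29 of the 54 were below 50% of their gastrula mean for good, against 6 of the 60. The median log2 change from blastula to neurula was 0.29 for the 54 members and 1.76 for the 60. These lists were formed after the values were seen and no test was made between them.

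**Figure D4:**
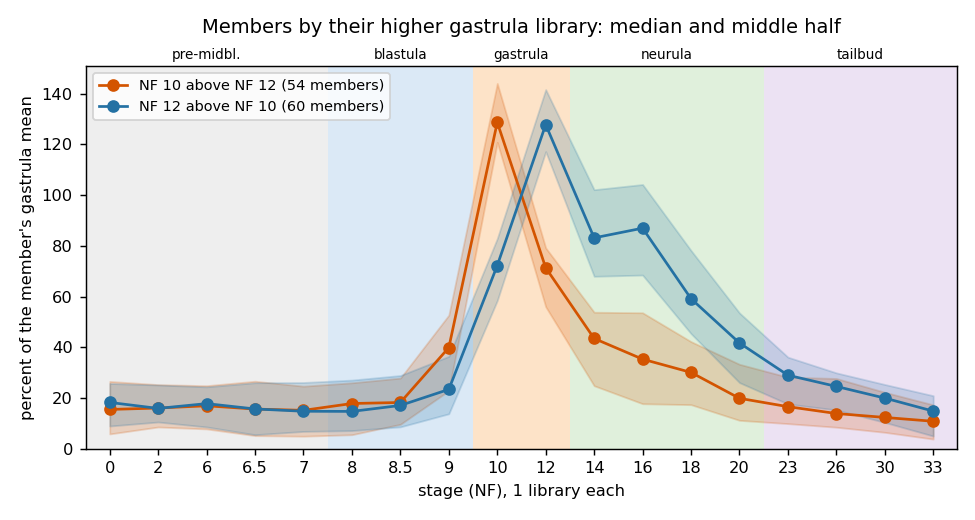
Percent of a member's own gastrula mean against stage, for the 54 members higher at NF 10 (orange) and the 60 higher at NF 12 (blue). Lines are medians and bands the middle 50% of members. The orange line is higher at NF 9, at 39.9% against 23.4%, and the blue line is higher from NF 14 on. At NF 9, 14 and 16 stage and kind of column cannot be told apart.

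In TPM, most members were clear of their peak before the tailbud. A member was first below 50% of its gastrula mean, and stayed there, in the NF 14 library in 35 cases, NF 16 in 9, NF 18 in 20, NF 20 in 26 and a tailbud library in 24. Thus 90 of 114 members had passed this point by NF 20, against 202 of the 255 low-maternal rows. In both sets the rule bounds the tailbud mean against the gastrula mean, so these counts are in part built in. They were not made over all rows. The ratio of frog to spike-in RNA was 2.09 at NF 20, above NF 10 and NF 12, and these counts were not made per spike-in. Counting consecutive stages at 50% or more of the highest value, the median peak spanned 2 libraries. It spanned 1 library in 23 members and 4 or more in 40, with a median of 2 for members higher at NF 10 and 4 for those higher at NF 12. The stages are unequally spaced in time, so these are numbers of libraries and not durations. Between neighbouring libraries 22 members fell at least 2-fold from NF 10 to NF 12 and 28 in the step to NF 14, and the later steps to NF 20 and NF 23 had 17 and 14.

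**Figure D5:**
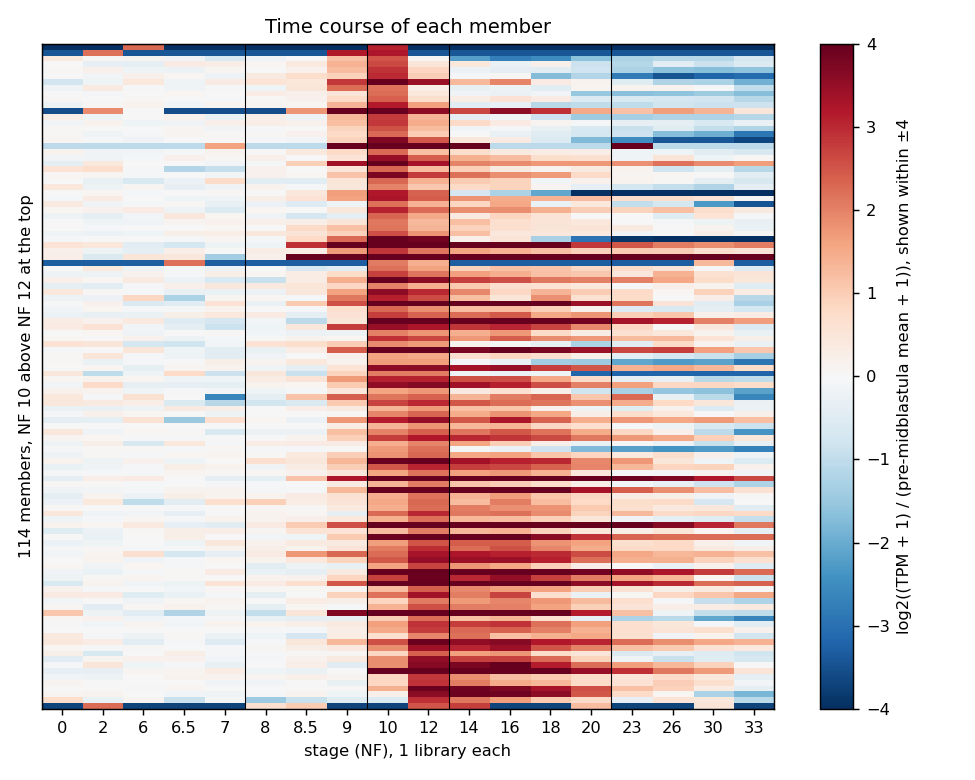
Each line is 1 of the 114 members and each column 1 library in stage order, with black lines between the 5 windows. Colour gives the log2 ratio of TPM + 1 to the pre-midblastula mean + 1, shown within 4 on either side of 0, and members are ordered from those higher at NF 10 to those higher at NF 12. Red fills the gastrula columns in nearly all lines and reaches further into the neurula towards the bottom.

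After the peak most members returned to near the maternal level in TPM, some stayed above it and some fell past it. The tailbud mean was within 2-fold of the pre-midblastula mean in 66 members, at least 2 times higher in 26 and at 50% of it or less in 22, or 57.9%, 22.8% and 19.3%. Over the 11573 rows with at least 1 TPM before the midblastula and 10 TPM in the gastrula these shares were 36.3%, 8.49% and 55.2%. The rule bounds both outer means from above, so this is a description of the chosen rows. In 8 members the tailbud mean was under 1 TPM. The median tailbud level was 1.11 times the maternal level in TPM but 2.74 times per spike-in, so the return to the maternal level held in TPM only.

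Members were also described by their maternal level. The 54 members under 10 TPM before the midblastula rose a median of 9.78-fold to the gastrula, the 47 from 10 to under 100 TPM 4.62-fold, and the 13 at 100 TPM or more 3.66-fold. Both levels are in the rule, and its limit of 10 TPM in the gastrula asks for a larger rise from the lowest maternal levels, so this order is in part built in. By NF 9, 28 of the 54, 15 of the 47 and 1 of the 13 had reached 2 times their maternal mean. In the test between neurula and blastula, which the rule did not use, 37 of the 54 were higher and 2 lower, 26 of the 47 were higher and 9 lower, and 5 of the 13 were higher and 1 lower. The median log2 changes there were 1.76, 0.81 and 0.24. Over all rows tested with the same maternal levels 23.5%, 11.5% and 20.8% were higher and 44.0%, 72.5% and 63.9% lower, with medians of -0.54, -1.27 and -1.05. The order of the 3 lists was not tested. At NF 20 the median member of each list held 26.9%, 32.4% and 36.0% of its gastrula mean.

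Members called by more than 1 of the 3 tests can be counted from the shorter lists. Of the 14 members that fell within the neurula, 6 were higher and 4 lower there than in the blastula. Of the 4 that rose within the blastula, 2 were higher in the neurula and 0 lower. No member both rose within the blastula and fell within the neurula by these tests (limma, adjusted p under 0.05), and 28 members passed none of the 3. These overlaps were not counted over all rows, so they describe the members only. A member that misses a threshold is not thereby shown to be level.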

How the data were processed

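Abundance per row was taken from 1 deposited table of 31085 rows, made up of 30993 frog sequences and 92 ERCC spike-ins (synthetic RNAs of known sequence). Per the submitters' processing notes the tools were CASAVA 1.8.2, Trimmomatic, Bowtie and RSEM, without their roles. The reference transcripts were not given in the sources used here. Deposited values were TPM in 9 of the 18 columns, summing to 1000000 within rounding. The other 9 deposited columns, treated as a signal on the same scale, summed to 1.48% to 2.72% more, and nothing in the labels says why. The design had assumed TPM throughout. Spike-in rows were left out and each library was rescaled to 1000000. The headers of NF 0 to NF 8 carry a suffix of unknown meaning, which takes in NF 8 but not NF 8.5 and NF 9. The header and title of the NF 8.5 library read NF8_II, and its stage was taken from the developmental stage label. Depth is unknown, so no counting interval is given.

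Members, windows and lists were chosen with earlier results of these data known. Tests used limma 3.58.1 in R 4.3.3 with an intensity trend on log2(TPM + 1), a scale that understates the change of low rows, for all 18 libraries and the 21670 rows whose mean reached 1 TPM. Benjamini-Hochberg adjustment was over all rows, and the scripts were tested on simulated data. Trends were slopes over stage order inside a window, in a model that also held every window mean. The rows named by identifier have the 2 largest rises and the 2 largest falls from blastula to neurula among members called there without overlap of libraries. Alternatives changed the pseudocount, filter, scaling, library weights, kind of column and single libraries. Python 3.11.15 was used for the rest. A list of gastrula genes by symbol could not be applied.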

Additional observations from a re-analysis of the deposited data

Results flagged for a closer look

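In the tailbud window XeXenL6RMv10033523m stood at 11.6 TPM at NF 33, apart from 7.27, 7.95 and 7.95 TPM in the other 3 libraries. It was the one value set apart in a search of 21 pairs of a window and a measure, where chance gives about 1.05.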

How the results depend on the processing

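No paired analysis was possible because the labels give no replicate numbers. Of the 114 members, 30 met the rule per spike-in, and 64 rows met it in deposited values without rescaling. Ratios of at least 2 gave 333 rows and ratios of at least 5 gave 37. Leaving out a pre-midblastula or tailbud library gave 105 to 129 rows. Without the 10 members of highest gastrula mean the share was 1.42% at NF 10 and 1.42% at NF 12. Between neurula and blastula 48 to 88 members were higher under the other alternatives, where 3958 of 16617 to 9231 of 22196 rows were. With a library left out these were 59 to 73 members and 5466 to 5791 rows. Among the 30 members chosen per spike-in 12 were higher and 5 lower, against 6542 and 9461 of 22560 rows in that fit, and the median changes were 0.16 and -0.24. The lower count was 2 with median ratio scaling, where 6912 of 22196 rows were lower. With a library left out it was 6 to 12 members, where 10785 to 11194 rows were lower. The lower count was 1 in columns summing to 1000000, but NF 8 is the lone blastula library there, so nothing is drawn from it. The blastula rise gave 7 members with array weights, where 198 of 21670 rows rose. With a library left out it gave 0 to 5 members, where 15 to 154 rows rose. The neurula fall gave 7 members per spike-in, where 122 of 22560 rows fell, and 7 with the kind of column as a term, where 249 of 21670 did. It gave 0 to 15 members with a library left out, where 0 to 452 rows fell. The cause was not tested. XeXenL6RMv10034006m kept its direction but missed the threshold in columns summing to 1000000, where the blastula arm is NF 8 alone, and the other 3 named members passed it in all 18 alternatives. Depth is unknown, so it sets no stated limit.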
